A study of Mus musculus with 10 samples.

Results

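The integrated stress response and the unfolded protein response were followed through 10 genes in bulk RNA-seq of B16F10 melanoma tumors. The genes were chosen by symbol, whatever their level: *Atf4*, *Ddit3*, *Trib3*, *Asns*, *Chac1*, *Hspa5*, *Xbp1*, *Herpud1*, *Atf3* and *Sesn2*. They take up 11 of the 55401 gene rows, because *Ddit3* stands on 2 rows, one of which held 0 counts in all 10 tumors and was left out. Reads were counted per gene in 5 *Mir25* KO tumors and 5 NTC tumors, and the comparison asks whether loss of *Mir25* in the tumor cells came with a different stress response RNA level in the treated tumor. The cells of both groups are B16F10, a mouse melanoma line, carrying either CRISPR guides to the *Mir25* precursor or a non-targeting control guide, and they grew under the skin of the flank of C57BL/6J female mice aged 9 to 12 weeks. Both groups received Comb, that is, irradiated GM-CSF-secreting B16 cells (GVAX) on days 1 and 4 and an antibody to PD-1 (αPD-1, 10 mg/kg) given 3 times, on days 6, 9 and 12, and tumors are labelled day 15. Hosts carry their own *Mir25*, the labels do not say which guide or whether a single clone or an edited population was injected, and every tumor here was treated, so no untreated level is given. No label says that the tumors of a group came from separate mice, and p-values then measure the spread between these tumors.

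Cells meet amino acid shortage, oxidative stress or misfolded protein in the endoplasmic reticulum (ER) by phosphorylating the translation factor eIF2, which lowers general protein synthesis while the mRNA of the transcription factor ATF4 is translated more. ATF4 then switches on genes of amino acid supply and, under lasting stress, of cell death. In the ER, the sensors IRE1 and ATF6 act through the transcription factors XBP1 and cleaved ATF6 on chaperones and on the machinery that removes misfolded protein. Since ATF4 and XBP1 are controlled largely by translation and splicing, gene counts of *Atf4* and *Xbp1* show their RNA and not the activity of either factor.

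The promoters of 6 members are shown because they hold the letters through which the response pathways are known to act on DNA. Each sequence runs 5′ to 3′ on the strand of its gene, is taken from RefSeq on GRCm38.p6 and spans 300 bases, of which the last 50 follow the gene's start in RefSeq. That start is not always the outermost start in GENCODE M21, whose positions are given for the genes further on: in *Atf3* it lies 34706 bases and in *Hspa5* 120 bases downstream of it, 7 and 5 bases from the nearest GENCODE transcript start, and in the other 4 genes shown it lies within 45 bases of it. Capitals mark the C/EBP-ATF response element (CARE, bound by ATF4, searched as TGATG, 1 base of any kind and AA), the ER stress response element (ERSE, searched as CCAAT, 9 bases of any kind and CCACG), its shorter form (ERSE-II, searched as ATTGG, 1 base of any kind and CCACG) and the unfolded protein response element (UPRE, TGACGTG), each on both strands.
*Asns* promoter, chr6:7693160-7693459, minus strand: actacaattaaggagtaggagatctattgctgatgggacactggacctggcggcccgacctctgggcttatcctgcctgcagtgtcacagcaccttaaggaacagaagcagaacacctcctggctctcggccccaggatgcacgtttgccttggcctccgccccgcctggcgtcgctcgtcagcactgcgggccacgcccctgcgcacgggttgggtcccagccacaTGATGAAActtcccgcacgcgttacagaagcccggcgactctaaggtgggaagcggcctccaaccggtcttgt
*Trib3* promoter, chr2:152344011-152344310, minus strand: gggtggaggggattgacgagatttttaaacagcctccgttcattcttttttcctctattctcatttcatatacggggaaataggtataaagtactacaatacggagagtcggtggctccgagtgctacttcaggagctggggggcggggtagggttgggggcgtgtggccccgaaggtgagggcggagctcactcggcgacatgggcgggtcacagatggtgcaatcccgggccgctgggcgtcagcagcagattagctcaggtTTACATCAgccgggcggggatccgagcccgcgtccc
*Chac1* promoter, chr2:119350992-119351291, plus strand: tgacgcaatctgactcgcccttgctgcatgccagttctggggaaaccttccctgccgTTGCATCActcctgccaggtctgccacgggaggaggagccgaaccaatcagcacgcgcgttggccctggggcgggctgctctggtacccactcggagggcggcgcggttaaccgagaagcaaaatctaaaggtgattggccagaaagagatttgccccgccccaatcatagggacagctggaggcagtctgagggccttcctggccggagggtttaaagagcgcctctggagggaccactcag
*Herpud1* promoter, chr8:94386179-94386478, plus strand: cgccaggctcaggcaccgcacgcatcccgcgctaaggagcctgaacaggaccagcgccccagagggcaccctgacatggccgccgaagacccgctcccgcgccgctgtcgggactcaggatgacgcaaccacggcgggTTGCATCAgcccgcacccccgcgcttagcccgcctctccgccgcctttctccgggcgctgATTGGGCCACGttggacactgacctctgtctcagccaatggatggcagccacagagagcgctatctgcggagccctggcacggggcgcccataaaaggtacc
*Atf3* promoter, chr1:191183284-191183583, minus strand: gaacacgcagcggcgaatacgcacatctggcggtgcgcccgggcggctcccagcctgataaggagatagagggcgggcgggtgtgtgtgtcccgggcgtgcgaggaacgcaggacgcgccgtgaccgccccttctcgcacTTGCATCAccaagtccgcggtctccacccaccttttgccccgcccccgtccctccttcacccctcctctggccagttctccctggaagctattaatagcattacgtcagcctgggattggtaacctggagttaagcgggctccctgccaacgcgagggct
*Hspa5* promoter, chr2:34771840-34772139, plus strand: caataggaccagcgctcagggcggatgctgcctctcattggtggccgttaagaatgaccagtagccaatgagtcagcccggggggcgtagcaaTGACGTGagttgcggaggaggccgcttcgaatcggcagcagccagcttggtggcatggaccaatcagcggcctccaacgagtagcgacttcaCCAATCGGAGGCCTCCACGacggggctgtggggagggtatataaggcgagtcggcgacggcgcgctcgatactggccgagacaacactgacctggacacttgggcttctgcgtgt

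A CARE was found in the promoters of 5 of the 10 members (*Trib3*, *Asns*, *Chac1*, *Herpud1* and *Atf3*), whereas 3.97% of all 32851 RefSeq promoters of this length held one. In *Asns* it begins at position -23 relative to the RefSeq start, in *Chac1* at -193, in *Herpud1* at -112 and in *Atf3* at -110, and in *Trib3* it lies 14 bases past that start. *Hspa5* holds an ERSE at -65 from its RefSeq start, a motif present in 0.119% of promoters, and a UPRE at -157, present in 2.01%. *Herpud1* is the member with both kinds of letters, its ERSE-II at -52 being shared by 0.0365% of promoters. The windows of *Atf4*, *Ddit3*, *Xbp1* and *Sesn2* hold none of these letters, which says nothing of sites elsewhere.

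The microRNA targeted by the guides in the KO cells is miR-25-3p, encoded on chr5:138165332-138165353 (GRCm38.p6, minus strand), shown with its seed, bases 2 to 8, in capitals because a site for it would be complementary to those bases.
mmu-miR-25-3p: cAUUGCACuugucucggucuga
The matching letters in mRNA, GTGCAAT, were absent from the longest annotated 3′ UTR of all 10 members, and 7.76% of the 12885 tested genes with a 3′ UTR (GENCODE M21) held them.

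The deposited libraries held 23243707 to 27006075 reads on genes in KO tumors and 24145795 to 28682130 in 4 of the NTC tumors. NTC replicate 1 stood apart, with 11896643 reads on genes, 42.9% of its reads on no gene against at most 28.2% in the other 9 tumors, and a count on 33193 genes against at most 25435. Because of this the fold changes of the members and the counts over all genes and pathway lists are given over all 10 tumors and over the 9 tumors without it, and list medians and single genes of the lists over 10 tumors unless stated. The *Mir25* precursor row held 0 counts in all 10 libraries, NTC included, so the counts do not check the genotype. Melanoma markers (8 genes, none at 0 counts in all tumors) summed to between 11613 and 22245 CPM in the 10 tumors. CPM here are a gene's reads relative to the size of the library, scaled by edgeR's TMM factors. This factor was 0.628 in NTC replicate 1 and 0.968 to 1.11 in the other tumors, and a low factor raises all CPM of its tumor.

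Set against exonic length (GENCODE M21), *Hspa5*, encoding the ER chaperone BiP, was the member with the highest level, a mean of 208 CPM per kilobase over the 10 tumors (range 188 to 232). *Atf4* followed at 104 CPM per kilobase (76.0 to 136). The ranges of these members did not overlap each other or the range of *Asns*, next at 45.2 CPM per kilobase (31.9 to 58.2). *Ddit3* at 40.0, *Xbp1* at 32.1, *Atf3* at 27.5, *Herpud1* at 24.6 and *Trib3* at 18.1 CPM per kilobase had ranges that overlapped those of their neighbours in this order. *Chac1* at 9.13 and *Sesn2* at 5.71 CPM per kilobase were the lowest, and their ranges overlapped too. Within the members, the spread between tumors was smallest for *Hspa5*, whose highest tumor was 1.23 times its lowest, and widest for *Atf3* at 4.66 times and *Trib3* at 3.58 times.

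In the comparison of *Mir25* KO with NTC tumors, 0 of the 10 members were called by edgeR's quasi-likelihood test (Benjamini-Hochberg adjusted p under 0.05 and a log2 fold change beyond 1 in either direction), where 3 of 15821 tested genes, 0.0190%, were called. Without NTC replicate 1 the count was again 0 of 10, with 17 of 16078 genes, 0.106%, called. All 10 members passed the filter on low counts. DESeq2 also called 0 of 10 over the 10 tumors, against 0.609% of all genes. On the 9 tumors it was run without a filter on low counts, so that the tumors and the genes tested both differ, and it called 0 of 10 again, against 4.05% of all genes. At an unadjusted p under 0.05, 1 member, *Xbp1*, passed in both edgeR fits, where 8.85% and 20.1% of all genes did. For none of the 10 members did the KO and NTC ranges part, with or without NTC replicate 1, while 2.32% of all genes over 10 tumors and 6.31% over 9 had ranges that did not overlap. The median log2 fold change of the members, KO over NTC, was 0.01 against 0.01 for all genes tested, and without NTC replicate 1 it was -0.07 against -0.02.

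**Figure D1:**
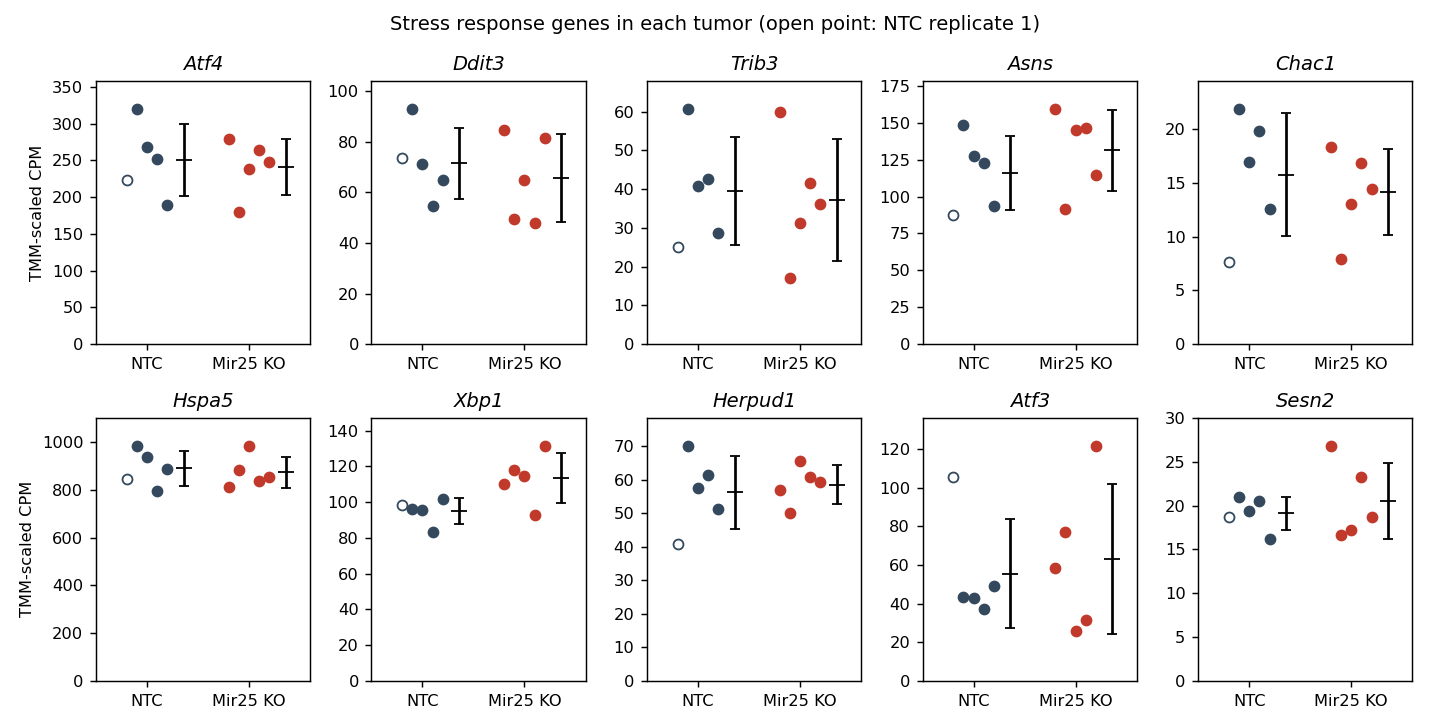
Expression of the 10 stress response genes in each tumor. The vertical axes give TMM-scaled CPM from 0, filled points are single NTC (dark) and *Mir25* KO (red) tumors, the open point is NTC replicate 1, and the black dash with its bar is the group mean with the SD of 5 tumors. Points of the groups overlap in every panel. *Atf3* shows NTC replicate 1 at 106 CPM, scaled by its TMM factor of 0.628, above the other NTC tumors at 37.1 to 48.9.

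*Atf4* (chr15:80255184-80257541, plus strand, GRCm38) encodes the central transcription factor of the integrated stress response. It was measured at 279, 179, 238, 264 and 248 CPM in KO replicates 1 to 5 and at 223, 319.7, 268, 252 and 189 CPM in NTC replicates 1 to 5. The lowest and the highest of the 10 tumors thus stood in different groups, KO replicate 2 and NTC replicate 2, while the rest lay between them without an order by group. On the log2 scale KO differed from NTC by -0.05 (SE 0.16, 95% confidence interval -0.40 to 0.29, adjusted p = 0.940, edgeR, n = 5 and 5), and -0.12 without NTC replicate 1 (interval -0.51 to 0.27, adjusted p = 0.712).

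*Ddit3* (chr10:127290774-127296288, plus strand) encodes CHOP, a factor that ATF4 induces and that promotes cell death under prolonged stress. The KO tumors had 84.6, 49.5, 64.9, 47.8 and 81.4 CPM and the NTC tumors 73.8, 92.9, 71.1, 54.7 and 64.9 CPM, in replicate order. KO tumors spanned both the low and the high end, with KO replicates 1 and 5 above all NTC tumors but NTC replicate 2. The difference on the log2 scale was -0.12 (interval -0.55 to 0.31, adjusted p = 0.874, edgeR) and -0.15 without NTC replicate 1 (interval -0.62 to 0.32, adjusted p = 0.714). Its exons share 6.13% of their bases with a second, short gene model of the same name and 4.73% with genes on the opposite strand, and the strand setting of the counting was not given in the sources used here.

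Next came the ATF4 targets. *Trib3* (chr2:152337422-152344032, minus strand), a pseudokinase that restrains AKT and ATF4 itself, had 59.8, 17.0, 31.4, 41.7 and 36.2 CPM in KO tumors. In NTC tumors the same gene had 25.2, 60.6, 40.9, 42.7 and 28.8 CPM. One tumor of each group, KO replicate 1 and NTC replicate 2, reached about 60 CPM, and KO replicate 2 was the lowest of all. Its log2 fold change of -0.09 carried an interval of -0.81 to 0.62 (adjusted p = 0.948, edgeR), so that at this spread neither a rise of 1.54-fold nor a drop to 0.571 of the NTC level lies outside it. Without NTC replicate 1 it was -0.25 (interval -0.98 to 0.48, adjusted p = 0.684).

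*Asns* (chr6:7675169-7693254, minus strand), asparagine synthetase, had 159, 91.8, 145, 146 and 114 CPM in KO tumors and 87.3, 148, 128, 123 and 93.6 CPM in NTC tumors. KO replicate 2 was as low as NTC replicates 1 and 5, and the other KO tumors lay at or above 114 CPM. Between the groups the log2 fold change was 0.18 (interval -0.23 to 0.58, adjusted p = 0.802, edgeR), and it was 0.06 without NTC replicate 1 (adjusted p = 0.873).

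*Chac1* (chr2:119351229-119354381, plus strand), an enzyme that degrades glutathione, was measured at 18.3, 7.97, 13.1, 16.8 and 14.4 CPM in KO and at 7.63, 21.8, 17.0, 19.8 and 12.6 CPM in NTC tumors. NTC replicate 1 was the lowest of all tumors and KO replicate 2 the next. Its log2 fold change moved from -0.17 (interval -0.82 to 0.48, adjusted p = 0.886, edgeR) to -0.37 (interval -0.92 to 0.19, adjusted p = 0.425) once NTC replicate 1 was left out. It is the member with the fewest reads, 57 to 666 per tumor.

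*Sesn2* (chr4:132492032-132510501, minus strand), a leucine sensor that restrains mTORC1, had 26.8, 16.6, 17.3, 23.2 and 18.7 CPM in KO tumors and 18.7, 21.0, 19.4, 20.5 and 16.1 CPM in NTC tumors. KO replicates 1 and 4 were above all NTC tumors and the remaining KO tumors among them. Its log2 fold change was 0.10 (interval -0.23 to 0.43, adjusted p = 0.868, edgeR) and 0.06 without NTC replicate 1 (interval -0.31 to 0.43, adjusted p = 0.856).

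*Atf3* (chr1:191170296-191218039, minus strand), a stress-induced transcription factor that also answers inflammatory signals, varied most. KO tumors had 58.5, 77.2, 26.1, 31.7 and 122 CPM and NTC tumors 106, 43.3, 42.8, 37.1 and 48.9 CPM. The NTC tumors other than replicate 1 lay close together, whereas KO tumors spread on both sides of them, 3 above and 2 below. KO over NTC, the log2 fold change was 0.19 over 10 tumors (interval -0.78 to 1.15, adjusted p = 0.920, edgeR) and 0.51 over 9 (interval -0.36 to 1.37, adjusted p = 0.473), so this gene's change is the least constrained of the 10.

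Among genes of the ER arm, *Hspa5* (chr2:34771970-34777547, plus strand) had 810.0, 883, 981, 837 and 852 CPM in KO tumors and 846, 983, 938, 797 and 885 CPM in NTC tumors. The groups covered nearly the same range. Its log2 fold change of -0.03 had an interval of -0.24 to 0.18, the narrowest of the members over 10 tumors, or 0.849 to 1.13 as a fold (adjusted p = 0.945, edgeR). Without NTC replicate 1 it was -0.08 (interval -0.32 to 0.16, adjusted p = 0.698).

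*Xbp1* (chr11:5520659-5525893, plus strand), whose mRNA is spliced by IRE1 and which plasma cells need for secretion, had 110.0, 118, 115, 93.0 and 131 CPM in KO tumors and 98.7, 96.0, 95.9, 83.2 and 102 CPM in NTC tumors. In 4 of 5 KO tumors the value was above every NTC tumor, and KO replicate 4 was below all of them but NTC replicate 4. For this gene the log2 fold change was 0.25 (interval 0.03 to 0.47, unadjusted p = 0.0276, adjusted p = 0.493, edgeR) and 0.23 without NTC replicate 1 (unadjusted p = 0.048, adjusted p = 0.245). The difference thus did not pass the adjustment over all genes, and its unadjusted p was above 0.05 when KO replicate 2, 3 or 5 or NTC replicate 4 was left out.

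*Herpud1* (chr8:94386438-94395377, plus strand), a part of ER-associated degradation (ERAD), had 57.1, 50.1, 65.7, 60.8 and 59.5 CPM in KO tumors and 41.0, 70.2, 57.7, 61.4 and 51.5 CPM in NTC tumors. All KO tumors lay within the NTC range. The log2 fold change was 0.05 (interval -0.25 to 0.36, adjusted p = 0.925, edgeR) and -0.07 without NTC replicate 1, where the lowest tumor is left out (interval -0.34 to 0.20, adjusted p = 0.770).

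**Figure D2:**
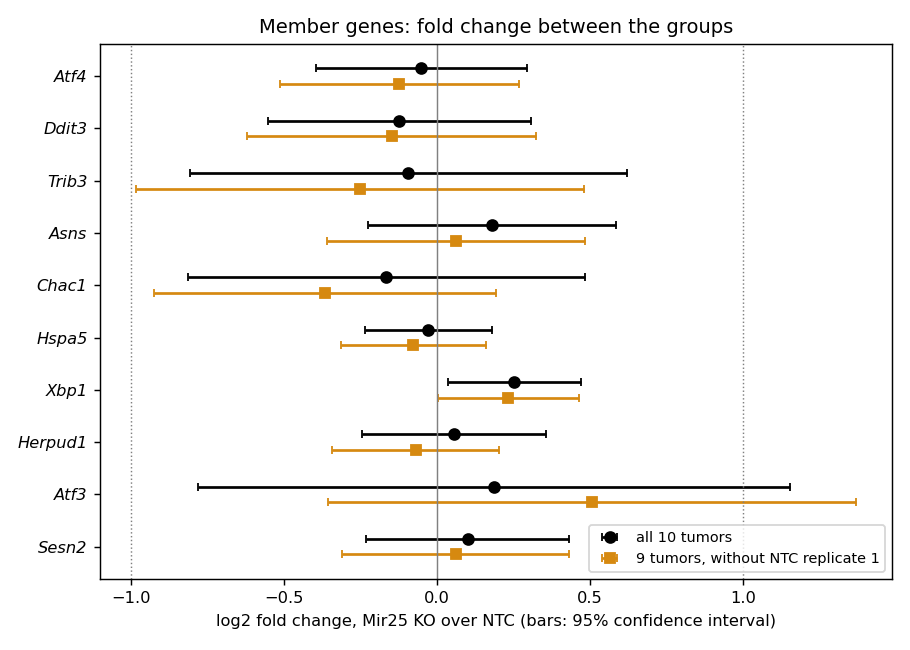
Log2 fold change of each member, *Mir25* KO over NTC, with 95% confidence intervals from edgeR's fit over all 10 tumors (black circles) and over the 9 tumors without NTC replicate 1 (orange squares). Dotted lines mark a log2 fold change of 1 in each direction, and all intervals but those of *Xbp1* cross 0.

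Although the groups did not part, the tumors differed from each other in a shared way. NTC replicate 2 was the highest tumor for 6 of the 10 members. Over the 10 tumors, 9 of the 45 member pairs had a Pearson correlation of log2 CPM with an adjusted p under 0.05 (permutation test, two-sided, 100000 resamples, Benjamini-Hochberg over the 45 pairs), all of them positive and all among *Atf4*, *Trib3*, *Asns*, *Chac1*, *Herpud1* and *Sesn2*. Values of a tumor share that library's scaling factor.

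*Trib3* and *Chac1*, the pair with the lowest p, had r = 0.917 (permutation p = 0.0001, adjusted p = 0.0045) and Spearman's rho = 0.964 (permutation p = 8e-05, adjusted p = 0.0036). For *Atf4* and *Trib3*, r was 0.918 (permutation p = 0.00025, adjusted p = 0.00562) and rho 0.939 (permutation p = 0.00023, adjusted p = 0.00517). *Atf4* with *Asns* gave r = 0.822 (permutation p = 0.00274, adjusted p = 0.0242) and rho = 0.855 (permutation p = 0.00268, adjusted p = 0.0181). Without the 2 tumors farthest from the median of the first gene, r in these 3 pairs was 0.853, 0.924 and 0.688. The weakest under that check was *Chac1* with *Herpud1*, where r fell from 0.825 to 0.499 and the adjusted p of rho was 0.109.

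Without NTC replicate 1, 4 of the 45 pairs passed, *Atf4* with *Trib3* (r = 0.925), *Asns* (r = 0.871) and *Chac1* (r = 0.899), and *Trib3* with *Chac1* (r = 0.957). Leaving out the 2 farthest tumors as well, r was 0.886, 0.465, 0.796 and 0.842, so that *Atf4* with *Asns* there rests largely on KO replicate 2 and NTC replicate 5. On deviations from the group means 10 pairs passed, again all positive. Within the 5 KO tumors *Atf4* followed *Trib3* at r = 0.977, *Asns* at 0.887 and *Chac1* at 0.998, and within the 5 NTC tumors at 0.894, 0.905 and 0.684, given as descriptions of 5 tumors each.

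The CARE letters and the shared variation did not coincide throughout. *Atf3* holds a CARE and had r = -0.30 with *Atf4*, while *Sesn2*, without one in its window, had r = 0.735 with *Atf4* (permutation p = 0.0158, adjusted p = 0.0711) and rho = 0.891 (permutation p = 0.00119, adjusted p = 0.0139). On deviations from the group means that r was 0.770 (adjusted permutation p = 0.0394). *Ddit3* had r = 0.529 with *Atf4* (adjusted permutation p = 0.276). *Hspa5*, with ER stress elements and no CARE, had r = 0.134 with *Atf4* and -0.02 with *Trib3* (adjusted permutation p = 0.762 and 0.961), and none of its correlations with the other members passed.

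**Figure D3:**
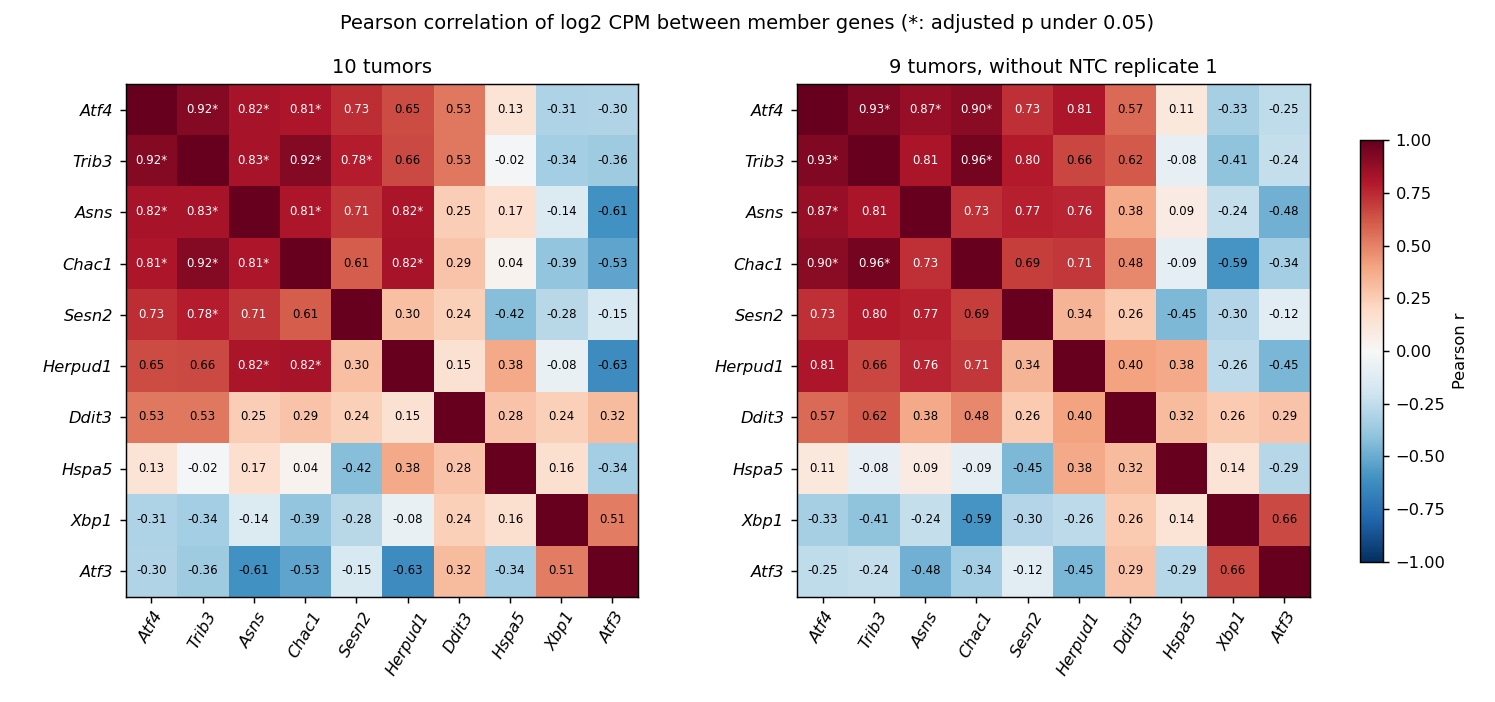
Pearson correlation of log2 CPM for each pair of members over 10 tumors (left) and over the 9 tumors without NTC replicate 1 (right), from blue at -1 to red at 1, with an asterisk where the adjusted permutation p is under 0.05. *Atf4*, *Trib3*, *Asns* and *Chac1* form the red block in both panels, and *Hspa5*, *Xbp1* and *Atf3* stand outside it.

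The genes most like *Asns* across the 10 tumors, among all 15821 tested and by Pearson's r of log2 CPM, were *Mthfd2* (r = 0.968), a mitochondrial folate enzyme, *Aldh18a1* (r = 0.954), the entry enzyme of proline synthesis, and *Xpot* (r = 0.921), the tRNA exporter. Of the members, *Trib3* ranked 56th in likeness to *Asns*, *Atf4* 62nd, *Herpud1* 68th, *Chac1* 76th and *Sesn2* 403rd. Much lower came *Ddit3* at rank 5625, *Hspa5* at 6447, *Xbp1* at 9264 and *Atf3* at 14915. *Mthfd2* had 134, 82.5, 124, 129.7 and 107 CPM in KO and 91.4, 142, 118, 113 and 89.0 CPM in NTC tumors, so that KO replicate 2 and NTC replicates 1 and 5 were low for it as they were for *Asns*. Its log2 fold change between the groups was 0.06 (adjusted p = 0.934, edgeR). Closest to *Hspa5* were *Tyw1* (r = 0.973), *Rpl6* (r = 0.929) and *Ormdl3* (r = 0.922), none of them an ER chaperone. These ranks describe 10 tumors and were not tested.

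The wider pathways gave a like picture. Of 119 genes in 11 lists covering the upstream kinases, the transcription factors, their targets and the ER, heat shock and mitochondrial stress machinery, 116 were tested and 0 were called by edgeR over 10 or 9 tumors. At an unadjusted p under 0.05 stood 10 of them (8.62%), 3 higher and 7 lower in KO, close to the 8.85% of all genes. Without NTC replicate 1 there were 13 (11.2%) where 20.1% of all genes passed. The median log2 fold change of the 116 genes was -0.01, and the lowest adjusted p was 0.226 over 10 tumors and 0.0644 over 9.

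Upstream, 8 of 8 genes for eIF2 kinases and phosphatase subunits were tested and 1 had an unadjusted p under 0.05, and 0 without NTC replicate 1. *Eif2ak2*, the kinase PKR that senses double-stranded RNA, was at 124 ± 4.98 CPM in KO and 147 ± 21.9 in NTC tumors (SD, n = 5 each, log2 fold change -0.24, adjusted p = 0.554, edgeR). *Ppp1r15b*, the constitutive phosphatase subunit, had a log2 fold change of -0.01 and *Eif2s1*, eIF2α itself, one of -0.04. Of 4 transcription factors that work with ATF4, 1 was at an unadjusted p under 0.05 over 10 tumors and 1 over 9. Over 10 it was *Atf5*, which lay at 19.0 to 36.9 CPM in KO and at 15.7 to 21.5 in NTC tumors (log2 fold change 0.47, adjusted p = 0.522). Without KO replicate 1, its highest tumor, the log2 fold change of *Atf5* was 0.29. *Cebpb*, also a factor of inflammation, had a log2 fold change of 0.42 over 10 tumors and 0.94 over 9 (adjusted p = 0.823 and 0.196), and *Cebpg*, a partner of ATF4, one of 0.10.

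Of the 17 ATF4 targets in amino acid transport and one-carbon metabolism 1 had an unadjusted p under 0.05 over 10 tumors, with a list median of 0.02, and 0 over 9. That gene was *Cth*, which makes cysteine, at 6.03 to 10.6 CPM in KO and 3.88 to 7.58 CPM in NTC tumors (log2 fold change 0.55, adjusted p = 0.514, edgeR). The transporters *Slc7a1* and *Slc3a2*, the most abundant of the list, had log2 fold changes of -0.12 and -0.15. Of 12 aminoacyl-tRNA synthetases 0 had an unadjusted p under 0.05 over 10 or 9 tumors (list median -0.10), among them *Eprs* at -0.12, *Gars* at 0.05 and *Cars* at -0.23.

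Among the 8 tested effectors of the response, 2 had an unadjusted p under 0.05 over 10 tumors, in opposite directions, with a list median of 0.14. Without NTC replicate 1 there were 4, 3 higher and 1 lower in KO, with a list median of 0.75, where 20.1% of all genes passed. The 3 higher were *Gdf15*, *Vldlr* and *Bcl2l11* and the lower was *Ddit4*. *Ddit4*, an inhibitor of mTORC1 that hypoxia also induces, lay at 28.8 to 57.2 CPM in KO and at 44.3 to 75.5 CPM in NTC tumors (log2 fold change -0.61, adjusted p = 0.437, edgeR). *Bcl2l11*, the pro-apoptotic BIM, had 31.7, 52.3, 21.1, 21.7 and 53.0 CPM in KO and 32.8, 10.2, 16.0, 11.6 and 18.9 CPM in NTC tumors (log2 fold change 1.02, adjusted p = 0.462). The KO tumors all exceeded the NTC tumors other than replicate 1, which stood within their range. *Bcl2l11* was named here after its values were seen. *Eif4ebp1*, which represses translation initiation, had a log2 fold change of -0.23.

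Leaving NTC replicate 1 out and using DESeq2 without a filter on low counts, 4 of 117 list genes with an adjusted p were called, 3.42%, where 4.05% of all genes were, so the share is near that of all genes. They are *Ero1l*, *Bcl2l11* and 2 more effectors, *Vldlr* and *Gdf15*. All but *Ero1l* were named here after their values were seen. *Vldlr*, a lipoprotein receptor, had 8.47, 4.59, 5.28, 8.14 and 8.80 CPM in KO and 1.54, 2.43, 2.93 and 1.35 CPM in NTC replicates 2 to 5, but 10.3 CPM in NTC replicate 1 (log2 fold change 1.76, DESeq2 adjusted p = 6.74e-06 over 9 tumors, and 0.98 with edgeR adjusted p = 0.635 over 10). *Gdf15*, a secreted stress hormone, had 1.48 to 10.9 CPM in KO tumors and 0.656 to 2.67 CPM in NTC replicates 2 to 5, ranges that overlap (log2 fold change 1.99, DESeq2 adjusted p = 0.0366). edgeR on the same 9 tumors called neither, with adjusted p = 0.0644 and 0.192. In those 9 tumors markers of other cell types were higher in KO too. At an unadjusted p under 0.05 stood 8 of 8 macrophage genes (median log2 fold change 1.62), 7 of 10 pan-leukocyte genes (1.38) and 4 of 8 fibroblast genes (1.55), all higher in KO, where 20.1% of all genes passed. Over 10 tumors 0 in each of these lists did (0.88, 0.82 and 0.34), where 8.85% of all genes did, and none of these genes was at 0 in all tumors. Over the 9 tumors 3 of 6 tested neutrophil, 4 of 4 tested skeletal muscle, 1 of 4 tested plasma cell and 1 of 8 endothelial genes were higher too. In the melanoma list 2 of 8 were lower. The part of other cell types in the higher values of *Bcl2l11*, *Vldlr* and *Gdf15* was not tested.

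The list gene with the lowest unadjusted p over 10 tumors was *Ero1l*, the oxidase that renews disulfide bond formation in the ER. It had 330.4, 210.5, 256, 437 and 190.2 CPM in KO tumors. In NTC tumors it had 510.0, 632, 468, 912 and 464 CPM, so that all KO tumors were below all NTC tumors. The log2 fold change was -1.07 (SE 0.27, unadjusted p = 0.00217, adjusted p = 0.226, edgeR over 10 tumors) and -1.08 with DESeq2 (adjusted p = 0.0126), which called it in both sets of tumors. In a hypoxia response list 0 of 9 genes were called by edgeR over 10 or 9 tumors, and 6 of 9 had an unadjusted p under 0.05 over 10 tumors (8.85% of all genes), all lower in KO, with a list median of -0.71 and none of the 9 at 0 counts in all tumors. That list summed to 572 to 1032 CPM in KO and 1009.5 to 1626 CPM in NTC tumors, and its part in the difference of *Ero1l* was not tested.

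*Ero1l* is 1 of 18 tested ER chaperones and folding enzymes, of which 3 had an unadjusted p under 0.05 over 10 tumors, all lower in KO, with a list median of -0.04, and 4 over 9 tumors, 3 lower and 1 higher. Over 10 tumors, beside *Ero1l*, these were *Hsp90b1* and *P4hb*, protein disulfide isomerase, the latter named after its values were seen (log2 fold change -0.20, adjusted p = 0.541, edgeR). *Hsp90b1*, the chaperone GRP94, lay at 936 to 1061 CPM in KO and 1020.2 to 1353 CPM in NTC tumors (log2 fold change -0.26, adjusted p = 0.465, edgeR), and *Canx*, calnexin, had a log2 fold change of -0.20 (adjusted p = 0.596). Of 8 sensors and proteases of the unfolded protein response and 15 genes of ERAD and translocation, 0 had an unadjusted p under 0.05 over 10 tumors, and 1 and 0 over 9, with *Atf6* at a log2 fold change of 0.08, its protease *Mbtps1* at -0.02, *Creb3* at -0.14, *Sel1l* at 0.16, *Ssr3* at 0.12 and *Uggt1* at -0.07.

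Stress outside the ER was covered by 3 more lists. Of 10 cytosolic heat shock genes 0 had an unadjusted p under 0.05 over 10 or 9 tumors, and the abundant chaperones *Hspa8* and *Hsp90ab1* had log2 fold changes of 0.23 and -0.01. Of 8 mitochondrial stress genes 1 did over 10 tumors and 2 over 9, all lower in KO, the 1 over 10 being the protease *Afg3l2* (log2 fold change -0.21, adjusted p = 0.462, edgeR), beside *Hspd1* at -0.12 and *Hspa9* at -0.19. Of 8 immediate early genes 1 did over 10 tumors and 1 over 9. Over 10 it was *Ier3*, at 19.4 to 41.6 CPM in KO and 34.9 to 67.2 CPM in NTC tumors (log2 fold change -0.98, adjusted p = 0.239, edgeR, and 0.0264 with DESeq2), while *Jun* was at -0.28 and *Junb* at 0.03.

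**Figure D4:**
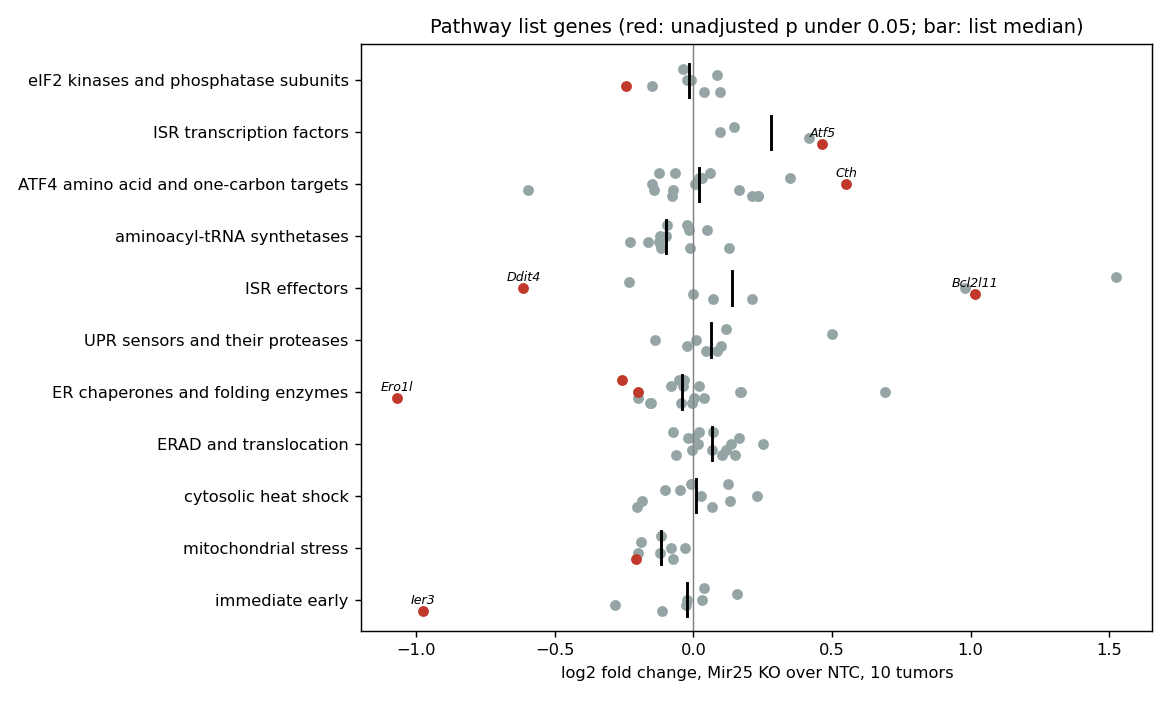
Log2 fold change (KO over NTC, 10 tumors) of the tested genes of the 11 pathway lists, one point a gene, in red where the unadjusted p is under 0.05, with black bars at the list medians. List medians lie between -0.12 and 0.28, and *Ero1l* and *Ier3* lie farthest to the left.

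Bulk tumors hold several cell types, and here fewer cells of a type and less RNA per cell cannot be told apart. As a leukocyte score, log2 CPM were averaged over 10 pan-leukocyte genes, and it ran from 6.09 to 8.21 in KO and from 5.10 to 7.77 in NTC tumors, with NTC replicate 1 the highest of the NTC tumors. The 10 genes summed to 859 to 3444 CPM in KO and 541 to 2665 CPM in NTC tumors, with none at 0 in all tumors. Of them 0 had an unadjusted p under 0.05 over 10 tumors (median log2 fold change 0.82) and 7 over 9 tumors (1.38), where 8.85% and 20.1% of all genes did. Of 20 relations of the members with this score and with a score of the 8 melanoma markers, 2 had an adjusted p under 0.05, both with *Atf3*.

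*Atf3* was higher where the leukocyte score was higher (r = 0.817, permutation p = 0.0048, adjusted p = 0.048, rho = 0.842, permutation p = 0.00376, adjusted p = 0.0752) and lower where the melanoma score was higher (r = -0.909, permutation p = 0.00046, adjusted p = 0.0092, rho = -0.745, permutation p = 0.0174, adjusted p = 0.0998). Without the 2 tumors farthest from the median score r was 0.769 and -0.775, and without NTC replicate 1 it was 0.792 (adjusted permutation p = 0.0685) and -0.902 (adjusted permutation p = 0.0184), with a rho of 0.800 and -0.667 (adjusted permutation p = 0.138 and 0.236). With the 2 farthest of those 9 tumors left out as well, KO replicates 5 and 2, the r with the leukocyte score was 0.388. *Xbp1* had r = 0.777 with the leukocyte score (permutation p = 0.00831, adjusted p = 0.0554), and 0.879 (adjusted permutation p = 0.0184) without NTC replicate 1. Its rho was 0.794 (permutation p = 0.00851, adjusted p = 0.0851) and, without NTC replicate 1, 0.833 (adjusted permutation p = 0.138). Without the 2 tumors farthest from the median score r fell to 0.536 over the 10 tumors and to 0.735 over the 9. On the other side *Chac1* had r = -0.729 with the leukocyte score (permutation p = 0.0171, adjusted p = 0.0857) and *Herpud1* r = -0.652 (permutation p = 0.0379, adjusted p = 0.126). *Atf4*, *Trib3* and *Asns* were negative too, at r = -0.543, -0.586 and -0.553 (adjusted permutation p = 0.213, 0.198 and 0.213). *Sesn2* was at -0.269, *Hspa5* at -0.218 and *Ddit3* at 0.076.

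With the leukocyte score as a covariate in edgeR's fit over 10 tumors, 3 of the 10 members had an unadjusted p under 0.05, where 12.9% of all genes did. The log2 fold change of *Asns* was then 0.41 (unadjusted p = 0.0092, adjusted p = 0.217), that of *Herpud1* 0.23 (unadjusted p = 0.041, adjusted p = 0.363) and that of *Atf3* -0.53 (unadjusted p = 0.0408, adjusted p = 0.362), opposite in sign to its value without the score. *Xbp1* came to 0.15 (unadjusted p = 0.110, adjusted p = 0.508). None of these passed the adjustment. Plasma cells, which use *Xbp1* heavily, were represented by 8 markers summing to 54.7 to 215 CPM in KO and 45.3 to 158 CPM in NTC tumors, with 4 of the 8 tested and none at 0 in all tumors. The sum was led by *Sdc1*, at a mean of 56.1 CPM, followed by *Ighm* at 30.8, *Igkc* at 12.0 and *Jchain* at 3.09. The 4 untested markers, *Mzb1*, *Derl3*, *Tnfrsf17* and *Pou2af1*, had means of 0.0531 to 0.355 CPM, so the sum is a weak measure of plasma cells. The part of plasma cells in the level of *Xbp1* was not tested.

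**Figure D5:**
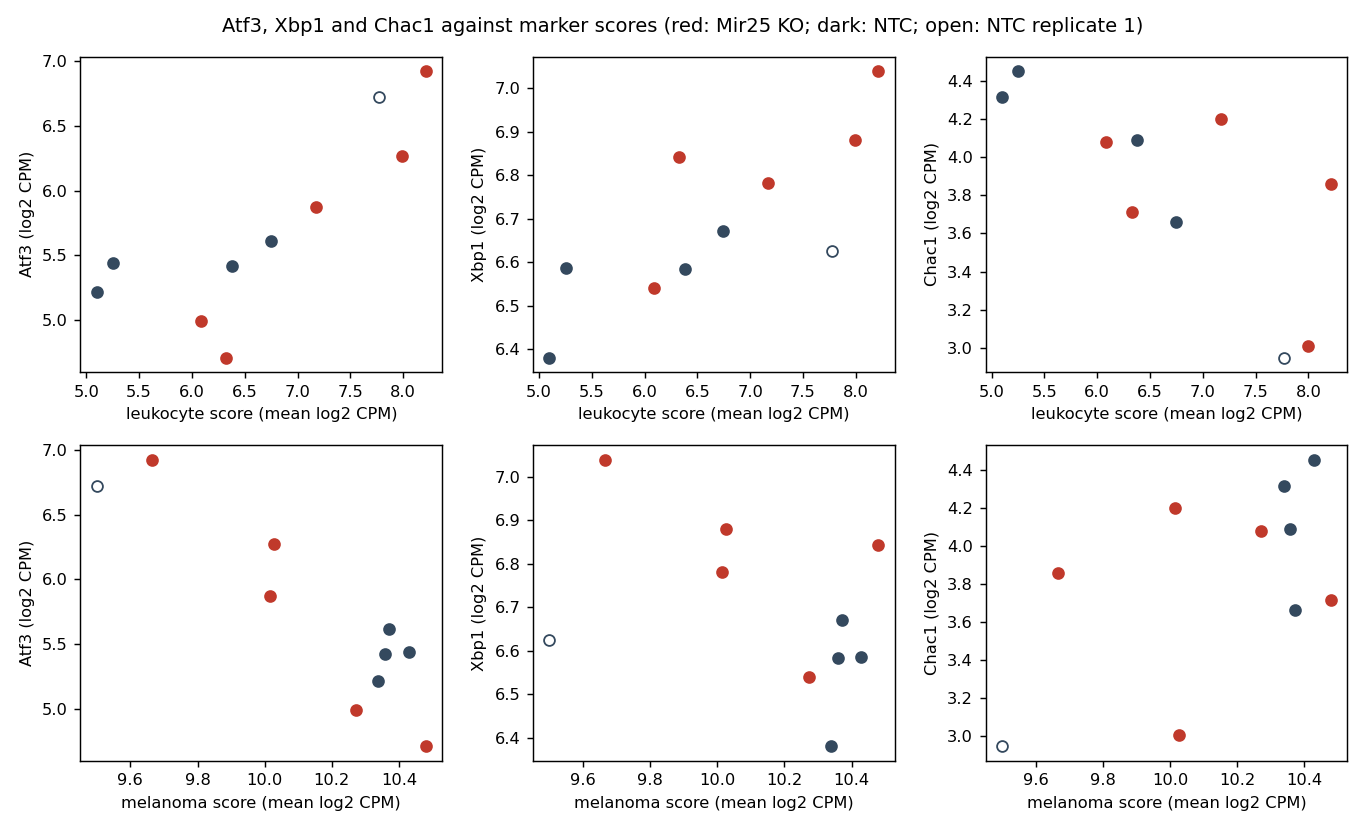
Log2 CPM of *Atf3*, *Xbp1* and *Chac1* against the leukocyte score (top) and the melanoma score (bottom), both mean log2 CPM of the marker genes. Points are single tumors, KO in red, NTC in dark and NTC replicate 1 open, and *Atf3* rises from left to right in the top panel and falls in the bottom one.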

How the data were processed

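The authors counted reads per gene for each of 10 tumors and deposited the counts without normalization. The submitters' processing notes name FastQC, Trimmomatic, HISAT2 and HTSeq with the build mm10. The annotation version and strand setting were not given in the sources used here. Rows that name no gene were left out of library sizes; they held the reads on no gene (17.5 to 42.9% of a library's reads) and other unassigned reads. Groups and replicate numbers came from the labels. KO was compared with NTC by edgeR 4.0.16 (quasi-likelihood test, TMM, filterByExpr), with Benjamini-Hochberg adjustment over all genes tested, an adjusted p under 0.05 and an absolute log2 fold change above 1. The code was tested on simulated data. Log2 CPM used a prior count of 2. DESeq2 1.42.0, R 4.3.3, Python 3.11.15, pandas 2.3.3, numpy 2.4.6, scipy 1.17.1 and matplotlib 3.10.9 were also used. The paper's own table of this comparison left out NTC replicate 1.

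The members and lists were chosen with earlier results of these data known. Named genes are the 10 members, from each pathway list the 2 with the highest mean CPM, the 1 with the lowest unadjusted p and any called, and the 3 genes most like *Asns* and *Hspa5*. Outside this rule, *Bcl2l11*, *Vldlr*, *Gdf15* and *P4hb* were named after their values were seen. Marker lists covered leukocytes, melanoma cells, plasma cells, macrophages, neutrophils, fibroblasts, endothelium, skeletal muscle, keratinocytes and hypoxia. Gene positions and 3′ UTRs are those of GENCODE M21 on GRCm38, matched by symbol, and promoters and miR-25-3p those of RefSeq on GRCm38.p6, where all 10 members matched. Alternatives were DESeq2, RLE scaling, dropping the filter on low counts, asking for 10 counts or more in each tumor, dropping the fold threshold, the replicate number as a block, leukocyte or melanoma scores as covariates, each tumor left out, and, for correlations, deviations from group means. DESeq2 without a filter on 9 tumors was chosen after seeing the data. Counts come from reads without molecular identifiers, so depth gives counting error only, and precision was taken from the spread between tumors.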

Additional observations from a re-analysis of the deposited data

Results flagged for a closer look

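In the NTC group, 6 of 21 values examined had a single tumor far from the other 4 by Dixon's test, and each time it was NTC replicate 1, while 0 of the 21 values in the KO group did. Chance alone sets apart about 1 group in 20 for a single value. The values examined come from the same libraries and share their scaling factors, so they are not independent. Among the members the value set apart was *Atf3*, at a log2 CPM of 6.72 against 5.21 to 5.62 in the other NTC tumors. This value and the scores below carry the TMM factors, 0.628 in NTC replicate 1, and the test was not repeated without them. The melanoma score of this tumor was 9.50 against 10.3 to 10.4, and its neutrophil score was 2.88 against -1.61 to -0.620. The score of skeletal muscle was -1.53 against -2.73 to -2.53 and that of keratinocytes -1.13 against -3.16 to -2.81, but KO tumors reached higher on both, from -2.49 to 4.22 for muscle, highest in KO replicate 4 and next, at 1.81, in KO replicate 3, and from -2.99 to 1.15 for keratinocytes, highest in KO replicate 3. Its reads on genes, 11896643, were fewer than the 24145795 to 28682130 of the others.

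The marker lists had these values beside the members. Macrophage genes summed to 3344 CPM in NTC replicate 1 and to 292 to 1287 CPM in the other NTC tumors, fibroblast genes to 6094 against 63.9 to 1653 CPM, and endothelial genes to 351 against 222 to 293 CPM. In KO tumors these sums were 907 to 3947, 939 to 5437 and 253 to 300.4 CPM. Muscle genes summed to 1.78 to 230.3 CPM in KO and 1.25 to 4.69 CPM in NTC tumors, and keratinocyte genes to 0.844 to 35.6 against 1.25 to 5.09 CPM.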

How the results depend on the processing

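Over the alternatives, 0 of the 10 members were called in any setting. Of 190 fold changes of members under an alternative, 176 kept their direction and side of the threshold and 14 turned sign, with a lowest adjusted p of 0.217. With the leukocyte score as a covariate the log2 fold changes that turned sign were *Atf4* 0.083, *Trib3* 0.24, *Chac1* 0.22, *Atf3* -0.53, *Ppp1r15b* 0.10, *Eif2s1* 0.024, *Cebpg* -0.0060, *Cebpb* -0.18, *Slc7a1* 0.15, *Eprs* 0.0037, *Cars* 0.0055, *Mbtps1* 0.12, *Uggt1* 0.039, *Hsp90ab1* 0.10, *Hspd1* 0.082 and *Junb* -0.32, and with the melanoma score *Atf3* -0.13, *Ppp1r15b* 0.022, *Mbtps1* 0.030, *Hsp90ab1* 0.029 and *Junb* -0.087. Without a filter on low counts *Hsp90ab1* was at 0.0040, and with DESeq2 on 9 tumors *Herpud1* was at -0.053 and *Gars* at -0.070. The cause was not tested. With 1 tumor left out at a time, values ran from -0.14 to 0.051 for *Atf4*, -0.33 to 0.11 for *Trib3*, -0.078 to 0.0084 for *Hspa5*, -0.070 to 0.14 for *Herpud1*, -0.19 to 0.51 for *Atf3*, -0.015 to 0.17 for *Sesn2*, -0.10 to 0.049 for *Ppp1r15b*, -0.086 to 0.027 for *Eif2s1*, -0.085 to 0.14 for *Gars*, -0.12 to 0.036 for *Mbtps1*, -0.080 to 0.049 for *Hsp90ab1* and -0.13 to 0.21 for *Junb*. Values that kept their sign moved too, such as -0.23 to -0.012 for *Ddit3*, -0.37 to -0.017 for *Chac1* and -0.25 to -0.022 for *Slc7a1*. The range was -0.18 to -0.027 for *Uggt1*, -0.23 to -0.040 for *Hspd1* and 0.15 to 0.94 for *Cebpb*. Members at an unadjusted p under 0.05 numbered 0 without a filter, 3 with the leukocyte covariate, 0 with DESeq2 on 9 tumors and 0 to 1 with a tumor left out, being 0 without KO replicate 2, 3 or 5 or NTC replicate 4. List genes called numbered 1 with DESeq2 on 10 tumors (*Ero1l*, log2 fold change -1.08) and 4 with DESeq2 on 9 tumors. The lowest depth, 11896643 reads, left 57 reads on *Chac1*. Same-numbered KO and NTC tumors had correlations of their deviations from the group means of 0.172, -0.287, 0.0788, 0.633 and 0.206. These mixed values do not settle whether such tumors share more than a number. With the replicate block 0 members were called and 1 stood at an unadjusted p under 0.05 (*Xbp1*, log2 fold change 0.25, adjusted p = 0.348).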
